A study of Mus musculus with 2 samples.

Results

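The T cell receptor complex and its first signalling steps were followed through 10 genes, out of 32285 genes counted, in CD8+ T cells sorted from B16 melanoma tumors. The 10 genes were taken as a named list by function, and the list was chosen with earlier results of these data known. They are the receptor subunits *Cd3d*, *Cd3e*, *Cd3g*, *Cd247* and *Trac*, the coreceptor chains *Cd8a* and *Cd8b1*, the kinases *Lck* and *Zap70*, and the adaptor *Lat*. All 10 were detected in both libraries.

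A T cell recognises a peptide held by an MHC molecule through its clonotypic receptor chains, which cannot signal by themselves. *Trac* encodes the constant region of the alpha chain, and *Cd3d*, *Cd3e*, *Cd3g* and *Cd247* (the zeta chain) encode the invariant chains whose cytoplasmic tails become phosphorylated. The CD8 coreceptor binds MHC class I as a dimer, either of the *Cd8a* and *Cd8b1* products or of the *Cd8a* product alone. The alpha chain carries *Lck* to the receptor. *Lck* then phosphorylates the CD3 and zeta tails, *Zap70* binds these and phosphorylates *Lat*, and *Lat* assembles the complexes that lead to calcium, Ras and NF-kappaB signals.

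The NC library came from lean mice fed normal chow and the WD library from obese mice fed western diet, both from male C57Bl/6J mice aged 16 weeks that carried B16 F0 tumors. The diets had run for 12 weeks before tumor cells were injected, and tumors were taken 14 days later. CD8+ cells were enriched with magnetic beads and then sorted for CD8 protein, so that the presence of *Cd8a* and *Cd8b1* RNA was in part set by the sort. Each diet is 1 library, and the sources used here do not state how many mice went into it, so diet, mouse and library cannot be told apart and no test between diets was made. All intervals are 95% intervals that cover counting error only.

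After cells with 7.5% or more mitochondrial unique molecular identifiers (UMIs, tags that let each captured RNA molecule be counted) and cells with 50000 or more UMIs were left out, 2456 NC cells with 27815785 UMIs and 2289 WD cells with 28705830 UMIs remained. The median cell held 7958 UMIs in the NC library and 9103 in the WD library. The 2 libraries shared 2 cell barcodes. UMIs were summed over cells and given as CPM, scaled to a total of 1000000 UMIs per sum. These are counts of transcript ends that are not scaled by length, so levels are compared between cell states and between libraries, and not between genes.

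The sorted cells carried the receptor. Of 4745 cells, 99.1% held a UMI of *Cd3d*, *Cd3e*, *Cd3g*, *Cd247* or *Trac*, and 96.4% held a UMI of *Cd8a* or *Cd8b1*. Neither kind was seen in 17 cells, and none of the 10 genes in 11 cells. The 10 genes together made up 0.652% of all UMIs in the NC library and 0.578% in the WD library. Markers of other cells, summed over each list and given for NC and then WD, were lowest for melanoma (5 genes, 0.683 and 1.01 CPM, *Tyr* at 0 in both), CD4 T cells (*Cd4* and *Foxp3*, 3.20 and 2.75 CPM), B cells (4 genes, 3.27 and 4.22 CPM) and NK cells (3 genes, 3.38 and 1.08 CPM, *Ncr1* at 0 in WD). They were higher for myeloid cells (6 genes, 22.4 and 21.8 CPM), gamma delta T cells (4 genes, 30.5 and 33.4 CPM) and dendritic cells (8 genes, 236 and 233 CPM). Of the gamma delta UMIs, 690 of 849 in NC and 719 of 958 in WD were of *Tcrg-C2*. In the clusters given below, the dendritic list was at 37.5 to 242 CPM in clusters 0 to 4 and at 8893 CPM in cluster 5. These 2 sums therefore do not by themselves measure other cells. The 4 red cell genes were at 0 in NC and at 320.2 CPM in WD, nearly all from 1 cell.

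Cells of both libraries were clustered without the 10 genes, their pathway partners and the receptor genes, so that the states below were not built from the genes described. Cluster 0 (1194 cells) was led by *Ifit3b*, *Ifit3*, *Gzma*, *Ifit1* and *Slfn5* and is given no cell type name. In it, 5 granzyme K memory markers summed to 16004 CPM, with a median log2 fold over other cells of 1.87. The 7 interferon-stimulated markers summed to 730 CPM there, with a median of 2.81. In the finer clusters given further on, *Rsad2*, *Ifit3b* and *Trim30c* led only 140 cells, and *Gzma*, *Ier3* and *Ccr2* led 1030 cells. How these groups fall on cluster 0 was not counted. Cluster 1 (1055 cells) was proliferating-like, led by *Pclaf*, *Nusap1* and *Birc5*, and cluster 2 (1002 cells) was naive- or memory-like, with *Tmem108* and *Klra7* among its leading genes. Cluster 3 (918 cells) was effector-like, led by *Gzmd*, *Gzme*, *Penk*, *Gzmf* and *Cd81*. The 9 effector markers had a median log2 fold of 1.34 in it. The 5 exhaustion markers (*Pdcd1*, *Havcr2*, *Lag3*, *Tigit* and *Tox*) were raised there too, at 987 CPM and a median of 1.07. Cluster 4 (545 cells) stays unnamed, and in it the exhaustion markers summed to 1373 CPM, with a median log2 fold of 1.30. Its cells were shallow, with a median of 2305 UMIs, and rich in the noncoding RNA *Gm26917* at 11945 CPM, and although 4 hemoglobin genes led it by fold, 99.6% of their UMIs lay in 1 WD cell that held none of the 10 genes. Cluster 5 (31 cells) was dendritic-like, led by *Ly6d* and *Siglech*, and is too small to enter the ranges below.

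The genes lie at few places in the genome. Coordinates are those of GENCODE vM21 on GRCm38, the build (mm10) that the submitters' processing notes name. *Cd3g* (ENSMUSG00000002033), *Cd3d* (ENSMUSG00000032094) and *Cd3e* (ENSMUSG00000032093) lie together on chromosome 9, at 44969572 to 44980431 on the minus strand, 44981786 to 44987339 on the plus strand and 44998740 to 45009627 on the minus strand. *Cd3g* and *Cd3d* point away from each other with 1354 bases between them. *Cd8b1* (ENSMUSG00000053044, 71322788 to 71337494) and *Cd8a* (ENSMUSG00000053977, 71373427 to 71379173) lie on the plus strand of chromosome 6 with 35932 bases between them. *Cd247* (ENSMUSG00000005763, chromosome 1, 165788681 to 165877277) shares exonic bases with *Gm16565* on its own strand and with *Pou2f1* on the other, and *Cd3e* shares exonic bases with *Gm48719* on the other strand, and how reads from these stretches were assigned is not given in the sources used here. *Trac* (ENSMUSG00000076928) lies on chromosome 14 from 54220521 to 54224206, *Lck* (ENSMUSG00000000409) on chromosome 4 from 129548344 to 129573641, *Zap70* (ENSMUSG00000026117) on chromosome 1 from 36761798 to 36782818 and *Lat* (ENSMUSG00000030742) on chromosome 7 from 126363824 to 126369570.

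Over all cells, *Cd3d* and *Cd3g* had nearly the same WD over NC ratio, as given further on. In cluster 1 their log2 ratios, −0.23 and −0.16, had intervals that did not overlap. In cluster 3 the order was the reverse, at −0.21 for *Cd3d* and −0.28 for *Cd3g*, with intervals that overlapped. The 2 genes thus showed no steady difference over the clusters. The promoters of both are shown with that of *Cd3e*, the remaining gene of this locus. Sequences are from RefSeq on GRCm38.p6, 300 bases each, from 250 bases before the start that RefSeq gives to 50 bases past it (for *Cd3e* this start is not the GENCODE one), and 5′ to 3′ on the gene's own strand. Capitals mark the string AGGAAG, which is among the sequences that Ets family factors bind, or its reverse complement CTTCCT. The windows are chr9:44981536-44981835 (plus strand) for *Cd3d*, chr9:44980382-44980681 (minus strand) for *Cd3g* and chr9:45009562-45009861 (minus strand) for *Cd3e*.
Cd3d promoter: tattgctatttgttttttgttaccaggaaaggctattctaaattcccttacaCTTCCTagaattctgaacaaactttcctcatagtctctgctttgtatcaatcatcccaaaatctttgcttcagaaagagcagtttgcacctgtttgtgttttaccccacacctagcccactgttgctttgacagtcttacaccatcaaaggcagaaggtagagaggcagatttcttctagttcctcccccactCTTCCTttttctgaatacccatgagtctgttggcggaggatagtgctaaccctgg
Cd3g promoter: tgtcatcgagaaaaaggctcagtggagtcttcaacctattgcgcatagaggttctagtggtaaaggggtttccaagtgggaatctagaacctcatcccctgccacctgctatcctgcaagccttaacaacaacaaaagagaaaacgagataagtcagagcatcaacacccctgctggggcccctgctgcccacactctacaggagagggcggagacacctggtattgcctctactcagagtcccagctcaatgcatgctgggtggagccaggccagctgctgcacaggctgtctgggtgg
Cd3e promoter: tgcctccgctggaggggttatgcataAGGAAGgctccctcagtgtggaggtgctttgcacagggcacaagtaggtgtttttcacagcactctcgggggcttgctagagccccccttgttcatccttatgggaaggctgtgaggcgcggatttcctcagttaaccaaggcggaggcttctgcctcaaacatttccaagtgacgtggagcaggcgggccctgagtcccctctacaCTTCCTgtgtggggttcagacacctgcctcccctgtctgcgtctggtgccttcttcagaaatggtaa

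The *Cd3d* and *Cd3e* windows each held 2 matches to this full string or its reverse complement, and the *Cd3g* window held 0. Shorter forms of the string were not counted. Among the 8 of the 10 genes with a promoter in the table, 6 had a match in their first listed window. Counting every listed window, 8 of 11 windows of these genes had a match, and 35.4% of all 32851 promoters did. The Runx core TGTGGT or its reverse complement ACCACA was in 2 of these 8 first windows. It was in 3 of the 11 windows and in 16.8% of all promoters. These matches describe letters in the windows and are not shown to be sites. *Cd8b1* and *Trac* had no entry.

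The CD3 chain transcripts *Cd3d*, *Cd3e* and *Cd3g* were highest in the effector-like cells and lower in the naive- or memory-like cells. In cluster 3, *Cd3g*, which encodes the gamma chain of CD3, was at 2435 CPM (interval 2401 to 2469) for NC and at 1999 CPM (1959 to 2040) for WD. In cluster 2 it was at 913 CPM (885 to 941) and 861 CPM (831 to 892) in the same libraries, and in clusters 1 and 0 it lay between these, at 1704 and 1522 CPM and at 1499 and 1462 CPM. Both libraries thus placed *Cd3g* in the order cluster 3, 1, 0, 2, with no overlap of the libraries' values between neighbours in this order, and cluster 4 lowest at 772 and 819 CPM.

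*Cd3d*, the delta chain of CD3, was at 1740 and 1501 CPM in cluster 3 of the NC and WD library, at 1403 and 1278 CPM in cluster 0 and at 1261 and 1078 CPM in cluster 1. It was at 1141 and 1034 CPM in cluster 2, whose values overlapped those of cluster 1, and lowest in cluster 4 at 679.7 and 712 CPM. Within each library cluster 2 was below cluster 1 for *Cd3d*, though in WD the counting intervals overlapped. *Cd3e*, the epsilon chain that pairs with both other CD3 chains, was also highest in cluster 3, at 813 and 715 CPM, and lowest in cluster 2, at 391 and 373 CPM. From the highest to the lowest of clusters 0 to 4, the mean of both libraries differed 2.79-fold for *Cd3g*, 2.33-fold for *Cd3d* and 2.0-fold for *Cd3e*.

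*Trac* and *Cd247* varied less over the states. *Trac* was at 719 and 685 CPM in cluster 0, 756 and 640.4 CPM in cluster 4 and 723 and 669.8 CPM in cluster 3, values that overlapped, and it was lowest in cluster 2 at 508 and 414 CPM. *Cd247* was at 131 and 139.7 CPM in cluster 0 and at 93.2 and 88.7 CPM in cluster 1, the lowest by the mean of both libraries. Clusters 2, 4 and 1 could not be placed in order for *Cd247*, since their library values overlapped. The highest cluster exceeded the lowest 1.52-fold for *Trac* and 1.49-fold for *Cd247*.

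The 2 coreceptor chains did not follow the same order of states. In cluster 3, *Cd8a* was at 795 CPM (776 to 814) for NC and 733 CPM (708 to 757) for WD, and in cluster 2 at 277 CPM (262 to 292) and 231 CPM (215 to 247), a 3.01-fold spread. *Cd8a* was also high in cluster 4, at 804 and 694 CPM, overlapping cluster 3, and lay at 583 and 532 CPM in cluster 1 and 471 and 450.5 CPM in cluster 0. *Cd8b1* was highest in cluster 0, at 1110.1 CPM (1070.0 to 1151) for NC and 929.8 CPM (904 to 956) for WD, a range that overlapped cluster 3 at 932 and 888 CPM. Within each library *Cd8b1* was higher in cluster 0 than in cluster 3, though in WD the counting intervals overlapped. It was lower in clusters 1 (661 and 643 CPM), 2 (613 and 561 CPM) and 4 (494 and 474 CPM), a 2.11-fold spread.

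The kinases and the adaptor showed orders of their own. *Lck* was highest in cluster 4, at 501 and 419 CPM in the NC and WD library, overlapped there by cluster 0 at 422 and 369 CPM, and lowest in cluster 1, at 243 and 261 CPM. Within each library cluster 4 was above cluster 0 for *Lck*, though in WD the counting intervals overlapped. *Zap70* was at 214 CPM (184 to 248) and 165 CPM (138 to 196) in cluster 4, and at 66.0 CPM (58.7 to 74.0) and 53.0 CPM (45.7 to 61.1) in cluster 2. The values of *Zap70* in clusters 3 (131 and 116 CPM), 1 (108 and 102 CPM) and 0 (89.8 and 83.7 CPM) lay between these, without overlap of the libraries' values. In WD the counting intervals of clusters 3 (106 to 126 CPM) and 1 (97.0 to 108 CPM) did overlap. The 3.19-fold spread of *Zap70* was the widest of the 10 genes over clusters 0 to 4. Cluster 4, with 182 and 133 *Zap70* UMIs, set its upper end, while the 3.01-fold spread of *Cd8a* ran from cluster 3 to cluster 2. Without cluster 4, *Zap70* followed the order of *Cd3g* over clusters 3, 1, 0 and 2. *Lat* was at 391 and 382 CPM in cluster 0 and between 220.5 and 291 CPM in the 4 other clusters, with the library values of clusters 3 and 1 overlapping. The counting intervals of *Lat* in cluster 4 (213 to 281 CPM for NC and 206 to 274 CPM for WD) overlapped those of clusters 1, 2 and 3.

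**Figure D1:**
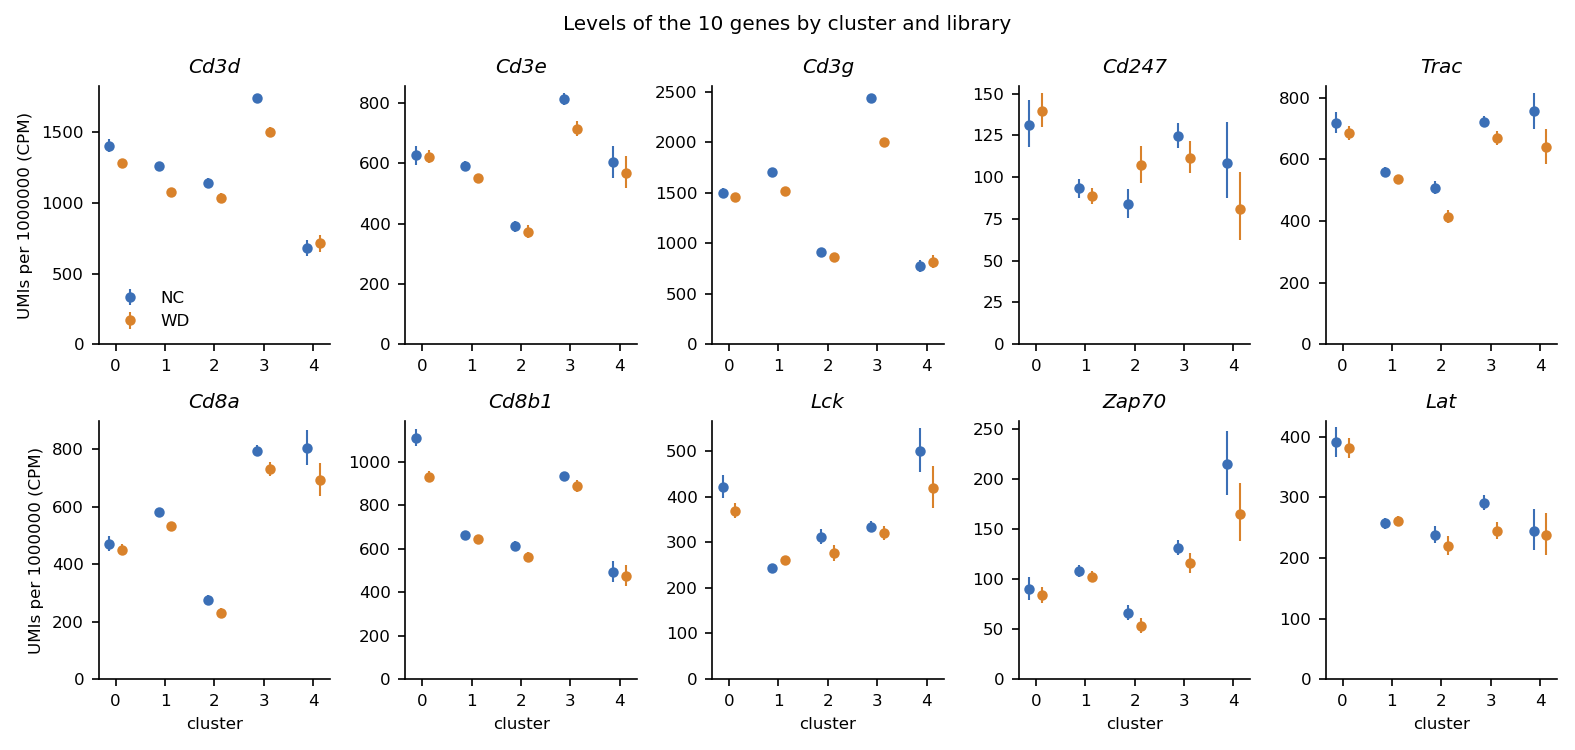
UMIs per 1000000 UMIs (CPM, vertical axis from 0) of each of the 10 genes in clusters 0 to 4 (horizontal axis), in the NC library (blue) and the WD library (orange); bars are exact Poisson 95% intervals of the summed UMIs. *Cd3d*, *Cd3e* and *Cd3g* were highest in cluster 3, *Cd8b1* and *Lat* in cluster 0, and *Lck* and *Zap70* in cluster 4.

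All 10 genes were lower in the WD library over all cells, 8 of them beyond counting error, and all by small amounts. Among the receptor subunits, *Cd3d* was at 1375 CPM (1361 to 1389) for NC and 1161 CPM (1148 to 1173) for WD, which gave a log2 ratio of −0.24 (−0.27 to −0.22). *Cd3g* stood at 1739 against 1476 CPM, with a log2 ratio of −0.24 (−0.26 to −0.22), and *Cd3e* at 627 against 566 CPM, with one of −0.15 (−0.18 to −0.11). These 3 neighbouring genes were thus lower in WD beyond counting error. *Trac* was at 619.6 and 571 CPM (log2 ratio −0.12, −0.15 to −0.088), while *Cd247* was at 105 and 103 CPM, with an interval that held 0 (−0.02, −0.095 to 0.054).

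*Cd8a* stood at 591 CPM for NC and 515 CPM for WD, with a log2 ratio of −0.20 (−0.23 to −0.17), and *Cd8b1* at 771 against 720.1 CPM, with one of −0.10 (−0.13 to −0.070). *Zap70*, at 109 and 96.2 CPM, had a log2 ratio of −0.19 (−0.26 to −0.11). *Lck*, at 305 and 295 CPM, had a log2 ratio of −0.05 (−0.090 to −0.0029), and *Lat*, at 276 and 274 CPM, one of −0.01 whose interval held 0 (−0.056 to 0.035).

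In number, 10 of 10 genes were lower in the WD library, as were 42.3% of the 7064 genes with at least 10 CPM in 1 library, although *Cd247* and *Lat* turned to 0.03 and 0.0024 when CPM was averaged over cells in place of summed. As summed over the kept cells, 0 of 10 were past 1.2-fold in either direction, as were 18.0% of all genes tested. With TMM factors *Cd3d* (−0.29) and *Cd3g* (−0.28) were past it, as they were over all deposited cells (−0.29 and −0.27), and with cells thinned to 1000 UMIs *Zap70* was (−0.33). That thinning was a single random draw, in which only 257 of 2402 NC and 189 of 2221 WD cells held *Zap70*. With cells thinned to 2000 UMIs *Zap70* was at −0.16. The log2 ratios of the 10 genes, as summed over the kept cells, had a median of −0.13, against 0.04 for all tested genes. No replicate library was there to judge differences of this size. Markers of cell state moved with it: the 9 effector markers summed to 5573 CPM for NC and 3033 CPM for WD, the 5 exhaustion markers to 697 and 488 CPM, the 11 proliferating markers to 1574 and 1803 CPM and the 7 naive or memory markers to 835 and 931 CPM. The median mitochondrial share of a cell was 2.10% for NC and 2.64% for WD, and it was higher for WD in each of clusters 0 to 4. Cluster 3 held 25.1% of NC cells and 13.1% of WD cells, and cluster 0 held 19.1% and 31.6%. The part of these in the result was not tested. As a mean within clusters 0 to 4 with equal weights, the median log2 ratio was −0.11. This mean was nearer 0 for *Cd3d* (−0.13), *Cd3e* (−0.089), *Cd3g* (−0.096) and *Cd8a* (−0.16), and further below 0 for the other genes of the 10. The values within clusters, which follow, are free of the mix of these clusters, but not of the mix of cells inside each. The libraries also differed in depth there. The median cell held 5057 UMIs for NC and 6628.5 for WD in cluster 0, and 22232 and 23124 in cluster 1. It held 7466 and 7868 in cluster 2, 11123 and 13888 in cluster 3, and 2305 and 2304 in cluster 4. The part of depth in the values within clusters was not tested.

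**Figure D2:**
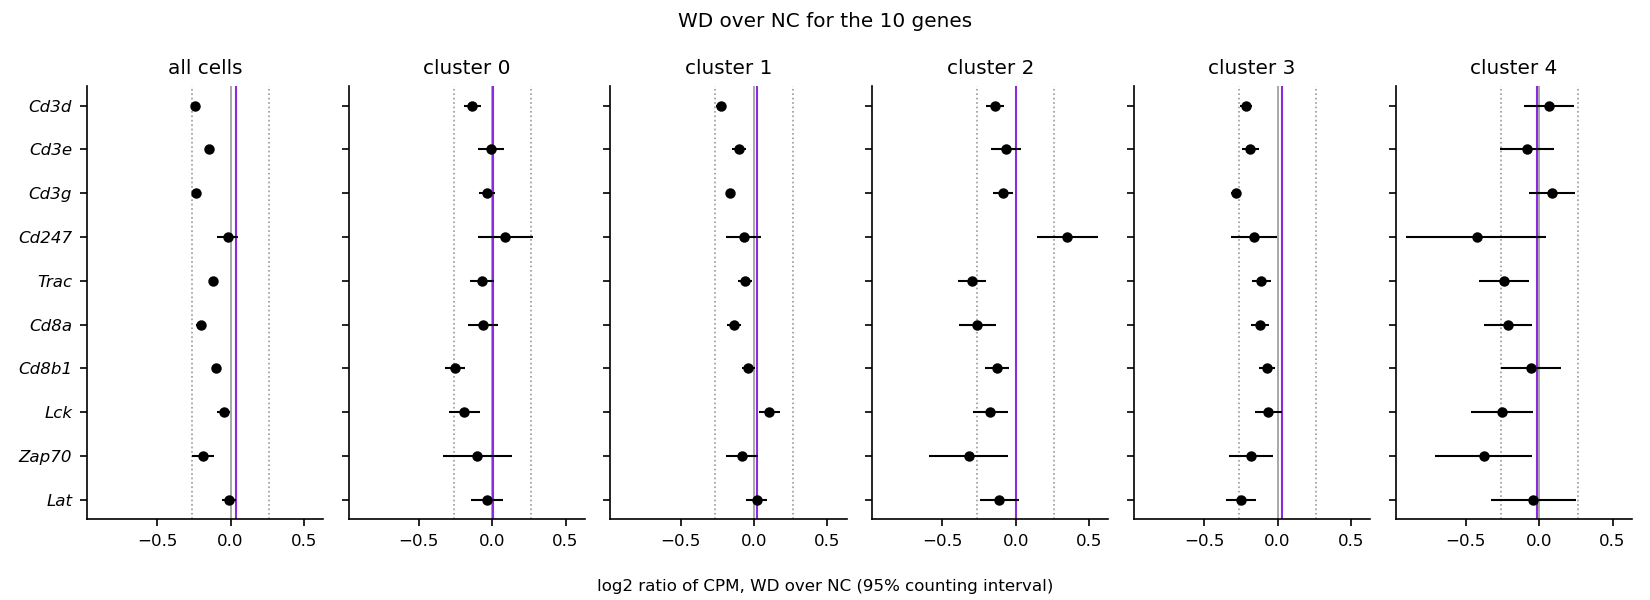
Log2 ratio of CPM, WD over NC (horizontal axis), for the 10 genes over all cells and in clusters 0 to 4, with exact 95% counting intervals; the dotted lines mark 1.2-fold and the purple line the median of all genes tested. In the panel of all cells every point lies below 0 and inside the dotted lines, and in cluster 2 *Cd247* lies above 0 at 0.35.

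Within the effector-like cluster 3, where the 3 CD3 chain genes were highest, 10 of 10 genes were again lower in the WD library, with 45.1% of all genes tested there lower. The interval excluded 0 for 9 of them, *Lck* being the exception at −0.06 (−0.15 to 0.028). *Cd3g* had the lowest log2 ratio in this cluster, −0.28 (−0.32 to −0.25), followed by *Lat* at −0.25 (−0.35 to −0.15) and *Cd3d* at −0.21 (−0.25 to −0.17). *Cd3g* was the 1 gene of 10 past 1.2-fold, where 34.4% of all genes were.

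In the proliferating-like cluster 1, 8 of 10 genes were lower in WD (45.7% of all genes) and 0 of 10 were past 1.2-fold (20.5% of all genes). *Cd3d* was at −0.23 (−0.26 to −0.19), *Cd3g* at −0.16 (−0.19 to −0.14) and *Cd8a* at −0.13 (−0.18 to −0.086). *Lck* went the other way in this cluster, at 243 CPM for NC and 261 CPM for WD, with a log2 ratio of 0.10 (0.033 to 0.18).

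Cluster 2, naive- or memory-like, had 9 of 10 genes lower in WD (49.5% of all genes) and 3 of 10 past 1.2-fold (33.9% of all genes). The 3 were *Zap70* at −0.32 (−0.59 to −0.050), *Trac* at −0.30 (−0.39 to −0.20) and *Cd247*, which was higher in WD at 0.35 (0.14 to 0.56), from 84.0 to 107 CPM on 379 and 382 UMIs. *Cd8a*, at −0.26 (−0.39 to −0.13), lay just inside the limit.

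In cluster 0, 9 of 10 genes were lower in WD (48.9% of all genes) and 0 of 10 were past 1.2-fold (33.2% of all genes). The interval lay below 0 for 3 of them, *Cd8b1* at −0.26 (−0.32 to −0.19), *Lck* at −0.19 (−0.30 to −0.082) and *Cd3d* at −0.14 (−0.19 to −0.077). *Cd3e*, *Cd3g* and *Cd8a* were between −0.01 and −0.06 here, with intervals that held 0.

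In cluster 4, 8 of 10 genes were lower (51.2% of all genes) and 2 of 10 were past 1.2-fold (59.4% of all genes, in a cluster with few UMIs). These were *Zap70* at −0.38 (−0.71 to −0.047) and *Cd247* at −0.43, whose interval held 0 (−0.91 to 0.048). *Cd3d* and *Cd3g* were not lower in WD in this cluster, at 0.07 (−0.10 to 0.24) and 0.09 (−0.072 to 0.24). *Cd3d* was thus lower in WD beyond counting error in clusters 0 to 3 and not in cluster 4.

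The balance of the 2 coreceptor chains differed more between states than between libraries. It is given as the log2 ratio of *Cd8a* UMIs to *Cd8b1* UMIs. Since the UMIs of the 2 genes need not be captured alike, a ratio above or below 0 does not say which chain is more abundant, and its differences are read. Over all cells, 31221 *Cd8a* UMIs stood against 42109 *Cd8b1* UMIs, a log2 ratio of −0.43 (−0.45 to −0.41). In cluster 2 the ratio was −1.20 (−1.28 to −1.13) and in cluster 0 it was −1.11 (−1.17 to −1.06). In cluster 1 it was −0.23 (−0.26 to −0.20) and in cluster 3 it was −0.25 (−0.28 to −0.21).

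The states therefore fell at 2 levels. Clusters 0 and 2 had fewer than 0.5 *Cd8a* UMIs for each *Cd8b1* UMI (0.462 and 0.435), while clusters 1 and 3 had 0.852 and 0.843. By the mean of both libraries, cluster 0 had the highest *Cd8b1* level (1020 CPM), though its values overlapped those of cluster 3. Its *Cd8a* level (461 CPM) lay below those of clusters 1 (557 CPM) and 3 (764 CPM). Cluster 2 had the lowest *Cd8a* level (254 CPM), and its *Cd8b1* level (587 CPM) was also below those of clusters 1 and 3. Cluster 4 stood apart with a log2 ratio of 0.63 (0.50 to 0.76), or 1.55 *Cd8a* UMIs for each *Cd8b1* UMI. The range over clusters 0 to 4 was 1.83 on the log2 scale, and 0.97 without cluster 4, so that this shallow, unnamed cluster set the upper end.

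**Figure D3:**
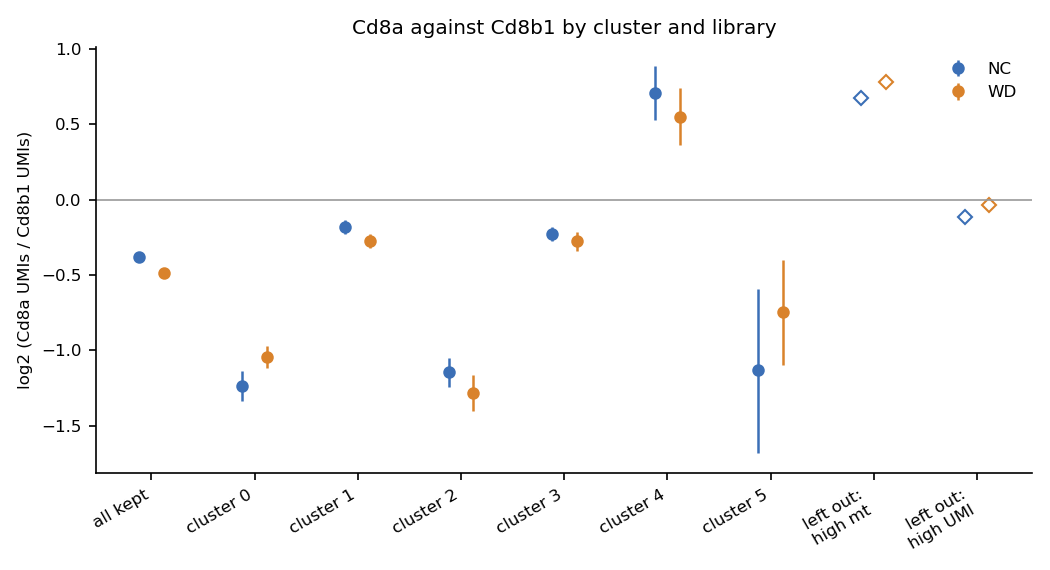
Log2 ratio of *Cd8a* UMIs to *Cd8b1* UMIs (vertical axis) over all kept cells and in clusters 0 to 5, in the NC library (blue) and the WD library (orange), with exact 95% counting intervals; open diamonds are cells left out for 7.5% or more mitochondrial UMIs or for 50000 or more UMIs, drawn without intervals. Clusters 0 and 2 lie below −1 in both libraries, clusters 1 and 3 between −0.18 and −0.28, and cluster 4 above 0.

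Both libraries gave this order of levels. The log2 ratio was −1.15 in the NC library and −1.28 in the WD library in cluster 2, −0.18 and −0.27 in cluster 1, −0.23 and −0.28 in cluster 3, and 0.70 and 0.55 in cluster 4. Over all cells it was −0.38 (−0.41 to −0.35) and −0.48 (−0.51 to −0.45), a difference, WD minus NC, of −0.10 (−0.14 to −0.060). This difference was −0.048 as the mean of the differences within clusters 0 to 4 and −0.035 over all deposited cells. Both lie outside the counting interval of the pooled difference, but they are other quantities, and no interval was computed for either. In cluster 1 the difference was −0.09 (−0.16 to −0.028), and in cluster 0, where the ratio went from −1.24 to −1.05, it was 0.19 (0.073 to 0.31) in the opposite direction. The intervals of the difference held 0 in clusters 2 (−0.13, −0.29 to 0.017), 3 (−0.05, −0.13 to 0.032) and 4 (−0.16, −0.41 to 0.10).

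Finer clusters resolved the naive- or memory-like cells further. At a resolution of 0.8, 13 clusters were found, and 323 cells led by *Igfbp4*, *Txndc16*, *Rflnb* and *Lef1* had a log2 ratio of −1.68, with *Cd8a* at 206 CPM and *Cd8b1* at 660.2 CPM. A second group of 681 cells, led by *Klra7* and *Tmem108*, had −1.06, with 274 and 570.4 CPM. The *Igfbp4*-led group was the lowest in each library, at −1.89 in NC and −1.55 in WD. It held 125 NC and 198 WD cells, and the *Klra7*-led group held 449 and 232. The part of this split in the WD over NC values of cluster 2 was not tested.

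Ratios above 0, the level of equal UMIs, were seen in 4 of the 13 finer clusters. Of these, 39 cells led by *BC028528*, *Xcl1* and *Tnfsf14* had a ratio of 0.53 at a median of 11792 UMIs, a depth like that of the effector-like cells, with *Cd8b1* at 376 CPM and *Cd8a* at 542 CPM. The 3 others were groups of 362, 100 and 86 cells with ratios of 0.61, 0.57 and 1.32 and medians of 2298, 5026 and 731 UMIs. The highest ratio was thus that of the shallowest group, and the part of depth in it was not tested.

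The ratio also moved with depth inside clusters, though not in the same direction in each. When the cells of cluster 1 were ordered by UMIs and divided into 4 bins of like size, the log2 ratio was −0.52, −0.33, −0.21 and −0.08 from the shallowest bin (median 12215 UMIs) to the deepest (38158 UMIs). *Cd8b1* went from 828 to 576 CPM over these bins and *Cd8a* from 576 to 546 CPM. In cluster 3 the ratio likewise went from −0.45 to −0.14, with *Cd8b1* at 1181 CPM in the shallowest bin and 795 CPM in the deepest, and *Cd8a* at 867 and 724 CPM. In clusters 0 and 2 the bins ranged from −1.20 to −1.03 and from −1.41 to −1.03, below every bin of clusters 1 and 3. In neither of these did the ratio follow a steady order over the bins. Cluster 4 ran the other way, from 1.17 in its shallowest bin (median 771 UMIs) to 0.50 in its deepest (5438.5 UMIs), with 0.53 and 0.86 between. Cells of cluster 0 in their deepest bin (median 9856 UMIs) and cells of cluster 3 in their second bin (10308 UMIs), which had like depth, had ratios of −1.03 and −0.30. The sum of *Cd3d*, *Cd3e* and *Cd3g* also went down with depth in cluster 3, from 5416 to 4309 CPM. Whether depth or cell state moves the ratio within a cluster was not tested.

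**Figure D4:**
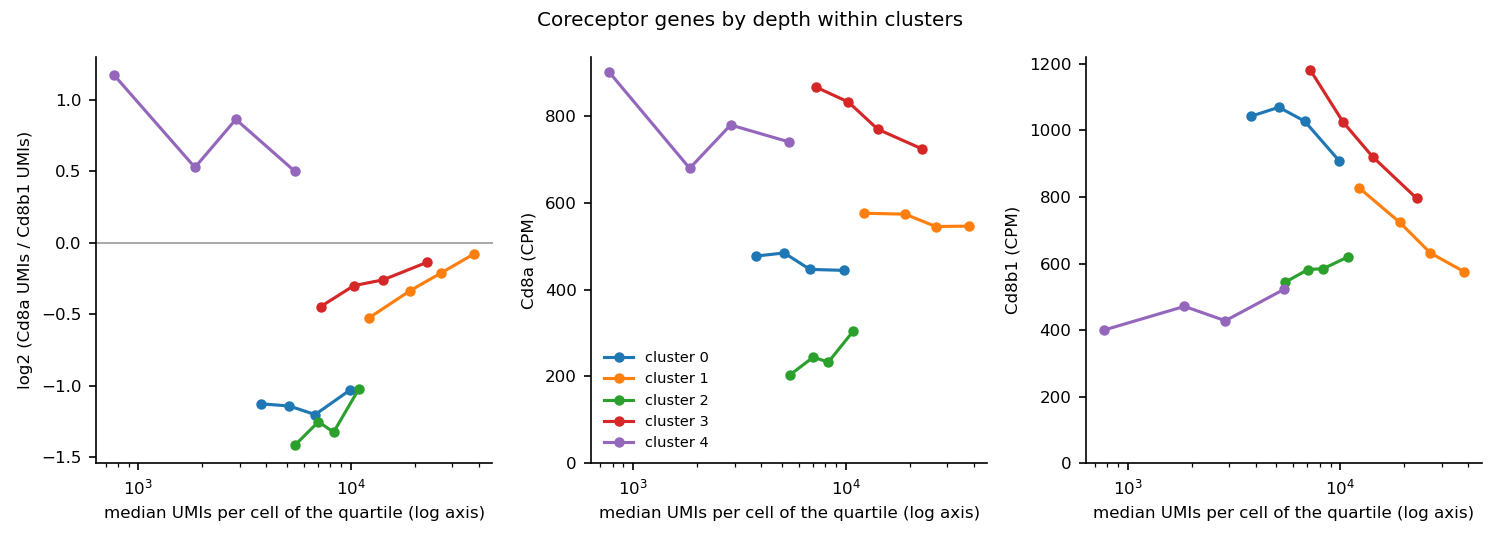
Cells of clusters 0 to 4, both libraries together, divided into 4 bins by UMIs per cell (horizontal log axis, median of the bin); the vertical axes give the log2 ratio of *Cd8a* to *Cd8b1* UMIs, *Cd8a* CPM and *Cd8b1* CPM. In clusters 1 and 3 the ratio is higher in deeper cells and *Cd8b1* CPM lower, and the lines of clusters 0 and 2 stay below those of clusters 1 and 3. In cluster 4 the shallowest bin has the highest ratio and the deepest bin the lowest.

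At equal depth the coreceptor chains were seen together most often in the effector-like cells. With each cell thinned to 2000 UMIs, both *Cd8a* and *Cd8b1* were detected in cluster 3 in 64.3% of NC cells (Clopper-Pearson interval 60.4% to 68.1%) and 61.5% of WD cells (55.7% to 67.0%). In cluster 2 this was 25.7% (22.2% to 29.5%) and 22.5% (18.7% to 26.8%), with 25.2% and 28.2% of cells showing neither. In cluster 1 it was 49.2% and 48.3%, and in cluster 0 it was 50% and 47.6%. Cells showing *Cd8b1* without *Cd8a* made up 37.4% and 38.0% of cluster 2 and 17.4% and 15.9% of cluster 3. The intervals of the 2 libraries overlapped in each of these states. Over all cells, both chains were seen in 46.8% of NC and 44.0% of WD cells after thinning, with 126 and 112 cells too shallow to enter, and in 82.3% and 83.1% without thinning.

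The dendritic-like cluster 5 holds cells that should lack the receptor. Of its 31 cells, 15 held at most 1 receptor UMI each, 2 in total at a median of 10486 UMIs per cell, yet 10 of these 15 held *Cd8a* and 10 held *Cd8b1*, with 53 and 70 UMIs. A further 14 cells held more than 10 receptor UMIs each and 673 in total, at a median of 19166 UMIs. This division by receptor UMIs was chosen after the values were seen. In the cells nearly without receptor UMIs, coreceptor UMIs of both chains were thus present. Some dendritic cells are known to express *Cd8a*.

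Beyond the 10 genes, 63 partners of the receptor were listed by role, and 55 had at least 10 CPM in 1 library. Of these 55, 4 were lower and 8 higher in WD past 1.2-fold (18.0% of all genes tested were past it in either direction), and 23 were lower at all (42.3% of all genes), shares near those of all genes. Their median log2 ratio was 0.02, near the 0.04 of all genes. The beta chain constant genes, which the alpha chain pairs with, were not lower in WD over all cells: *Trbc1* was at 812 CPM in NC and 846 CPM in WD (log2 ratio 0.06, 0.032 to 0.084) and *Trbc2* at 1745 and 1747 CPM (0.00, −0.016 to 0.020). Within clusters *Trbc1* went both ways, lower in WD in clusters 0 (−0.25, −0.32 to −0.18) and 2 (−0.19, −0.27 to −0.10) and higher in clusters 1 (0.31, 0.27 to 0.36) and 3 (0.13, 0.078 to 0.17). For *Trbc2* the interval held 0 in clusters 0 to 3 and lay above 0 in cluster 4 (0.26, 0.10 to 0.41). *Tcrg-C2*, a gamma chain constant gene, was at 24.8 and 25.0 CPM, and *Tcrg-C1*, *Tcrg-C4* and *Trdc* were below 10 CPM in both.

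Among kinases and phosphatases, 2 of 10 were lower and 2 higher past 1.2-fold, against 18.0% of all genes in either direction. *Ptpn6*, which encodes the phosphatase SHP-1 that counteracts receptor signals, was at 174 CPM for NC and 119 CPM for WD, with a log2 ratio of −0.56 (−0.62 to −0.49). It was lower in WD in each of clusters 0 to 4, from −0.67 in cluster 3 to −0.19 in cluster 2, where the interval held 0. *Tec*, a nonreceptor tyrosine kinase, was at 17.5 and 13.7 CPM (−0.35, −0.55 to −0.16). Among clusters 0 to 4 its interval lay below 0 only in cluster 1 (−0.34).

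Of 10 inhibitors, 2 were lower and 1 higher past 1.2-fold, again against 18.0% of all genes. *Ubash3b*, a phosphatase that acts on *Zap70*, was at 73.1 and 56.4 CPM (−0.37, −0.47 to −0.28), and *Cblb*, a ubiquitin ligase that restrains T cell activation, at 152 and 118 CPM (−0.36, −0.43 to −0.30). *Cblb* was lower in WD in clusters 3 (−0.54), 4 (−0.54) and 1 (−0.29), and its interval held 0 in clusters 0 and 2. *Ubash3b* was lower in clusters 1 (−0.33) and 3 (−0.30), with intervals that held 0 in clusters 0, 2 and 4. *Socs1*, an inhibitor of cytokine signalling, was higher in WD, at 69.6 and 91.6 CPM (0.40, 0.31 to 0.48). Its interval lay above 0 in clusters 1 to 4, from 0.30 in cluster 2 to 0.98 in cluster 3. In cluster 0 *Socs1* was at −0.14, with an interval that held 0.

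The adaptors, effectors and accessory receptors had their largest differences upward, and the counts past 1.2-fold in these lists also stand against 18.0% of all genes. *Pag1*, a membrane adaptor that holds the inhibitory kinase Csk, was at 19.0 CPM in NC and 24.5 CPM in WD (0.37, 0.20 to 0.53), as 1 of 3 of 15 adaptors past 1.2-fold. It was higher in WD in clusters 0 (0.51) and 1 (0.85). The interval held 0 in clusters 2 (−0.12), 3 (0.08) and 4 (−0.42). *Malt1*, a protease on the path from the receptor to NF-kappaB, was at 67.9 and 88.8 CPM (0.39, 0.30 to 0.47), the 1 of 10 effectors past 1.2-fold. It was higher in clusters 1 (0.69) and 3 (0.38), with intervals that held 0 in clusters 0, 2 and 4. *Cd28*, the costimulatory receptor, was at 183 and 249 CPM (0.45, 0.39 to 0.50), the 1 of 7 accessory receptors past 1.2-fold, and its interval lay above 0 in each of clusters 0 to 4, from 0.28 in cluster 3 to 0.54 in cluster 1. The partners named here were picked as the 4 highest and 4 lowest, so that they go both ways by choice. Of all 55 partners, 23 were lower in WD, a share near the 42.3% of all genes. The 10 receptor, coreceptor and signalling genes lay on 1 side when UMIs were summed over all cells, with intervals that held 0 for *Cd247* and *Lat*.

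**Figure D5:**
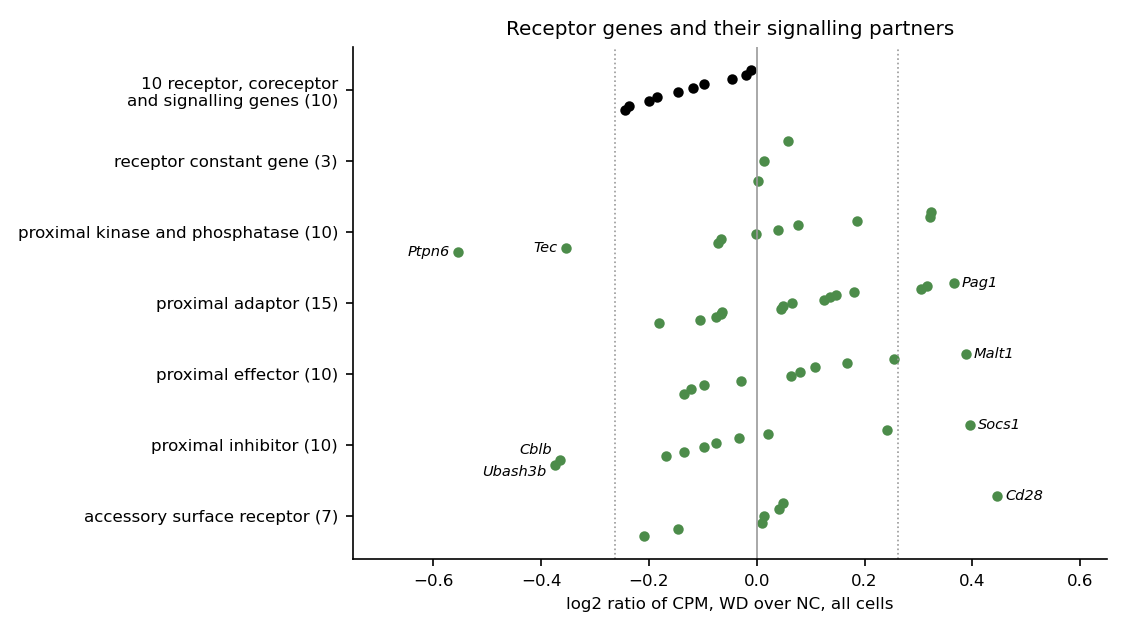
Log2 ratio of CPM, WD over NC, all cells (horizontal axis), for the 10 genes (black) and for 55 partners by list (green, number of genes in brackets); dotted lines mark 1.2-fold, and the 4 highest and 4 lowest partners are named. The 10 genes lie between −0.24 and −0.01, and the partners between −0.56 (*Ptpn6*) and 0.45 (*Cd28*).

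Genes whose levels ran most like the coreceptor chains over the states were different for each chain. Over 10 sums of cells (clusters 0 to 4 in each library) and 4342 genes, *Cd8a* was followed most closely by *Bin1* (Pearson's r = 0.994), *Ctsb* (0.990), *Ptpn1* (0.988), *Lag3* (0.987) and *Ptms* (0.984). *Cd8b1* was followed by *H2-T23* (0.979), *Ms4a4b* (0.964), *Ifi35* (0.944), *Pdlim2* (0.944) and *H2-D1* (0.943). The sum of *Cd3d*, *Cd3e* and *Cd3g* was followed by *Itgb1bp1* (0.976), *Myl6* (0.975), *BC031181* (0.973), *Dhrs7* (0.970) and *Ech1* (0.970). The 10 sums come from 2 libraries and share their clusters and depths, so these values describe the pattern and carry no test.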

How the data were processed

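The authors sequenced 1 droplet library of sorted CD8+ tumor T cells per diet and deposited UMI counts per gene and cell without normalization. The submitters' processing notes name Cell Ranger 6.0.2 and mm10. The deposited 5320 cells include 575 outside the limits of the study's methods (under 7.5% mitochondrial UMIs, over 500 and under 50000 UMIs). These 575 were left out of the main values here. The number of cells that the study states after its own filtering is the same as the number deposited. The 10 genes and all lists were chosen with earlier results of these data known.

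Counts were summed per library and cluster as CPM with exact Poisson intervals. Log2 ratios have exact conditional binomial intervals, differences of the *Cd8a* to *Cd8b1* ratio normal intervals on the log scale, and shares Clopper-Pearson intervals. These cover counting error only and, with 1 library per diet, no test was made. Clusters were computed with Seurat 5.3.0 (2000 variable genes, 20 principal components, resolution 0.14, the lowest that gave 6 clusters). Ranges use clusters of at least 200 cells. Python 3.11.15, numpy 2.4.6, scipy 1.17.1 and pandas 2.3.3 were used. Intervals were checked only on simulated Poisson counts without variation between cells, mice or libraries, so the check covers counting error only. Doublets were scored with Scrublet in scanpy 1.11.5, which marked 2 of 4745 cells, and no cell was removed in the main values. So low a count does not show that doublets were few, and doublets may remain among the cells used. Named genes were the 10, the receptor constant genes, the 4 highest and 4 lowest partners with at least 10 CPM, leading genes of clusters (at least 50 CPM) and the 5 genes most alike in pattern. Alternatives were TMM factors of edgeR 4.0.16, other totals, thinning, stricter or wider cell filters, low-count limits and other clusterings.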

Additional observations from a re-analysis of the deposited data

Results flagged for a closer look

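Some values went opposite ways in different clusters beyond their counting intervals. The log2 ratio of *Cd247*, WD over NC, was 0.35 in cluster 2 and −0.16 in cluster 3. That of *Lck* was 0.10 in cluster 1, and −0.19 in cluster 0, −0.17 in cluster 2 and −0.26 in cluster 4. The *Cd8a* to *Cd8b1* log2 ratio, WD minus NC, was 0.19 in cluster 0 and −0.093 in cluster 1. Whether the clusters differ was not tested, since each diet is 1 library.

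The cells outside the filters entered only the alternative with all deposited cells, and they also held the 10 genes. In the cells with 7.5% or more mitochondrial UMIs, 158 from NC and 213 from WD, the log2 ratio of *Cd8a* to *Cd8b1* UMIs was 0.68 and 0.78, above 0 as in cluster 4. In those with 50000 or more UMIs, 83 from NC and 121 from WD, it was −0.12 and −0.035, above every whole cluster but cluster 4. The median depth was 1514.5 and 2540.0 UMIs in the first group and 63662 and 71618 UMIs in the second.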

How the results depend on the processing

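No paired analysis was possible because each diet is 1 library, and for the same reason no library could be left out in turn. The alternatives with all deposited cells and without clusters 4 and 5 were chosen after seeing the data. The 10 genes had a median log2 ratio of −0.18 with TMM factors and −0.16 with all deposited cells, outside the limits set for it. These limits were the medians of the 10 genes' own lower and upper interval bounds, and not a counting interval of the median. The number of genes past 1.2-fold, 0 as reported, was 2 with TMM factors, 1 with cells thinned to 1000 UMIs and 2 with all deposited cells. The *Cd8a* to *Cd8b1* difference between libraries was −0.048 as a mean within clusters and −0.035 with all deposited cells. The range of that ratio over clusters was 2.29 at a resolution of 0.8, 2.07 with cells thinned to 2000 UMIs and 0.97 without clusters 4 and 5. The other alternatives of these results stayed within their intervals or limits. Of 110 alternative values for single genes, 80 stayed within the reported interval, 30 lay outside it, and of the 8 genes whose interval excluded 0, 0 changed direction. Of the 110, 104 were below 0, and the 6 above 0 were of *Cd247* and *Lat*. With limits of 1 and 50 CPM, 28.3% and 16.5% of all genes were past 1.2-fold. Depth limits *Cd247* and *Zap70* most, with between 2761 and 3043 UMIs each per library. The cause of these shifts was not tested.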
